A study of Mus musculus with 6 samples.

Results

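CpG methylation was described for 10 genes that steer spermatogonial differentiation and the retinoic acid response: Kit, Sohlh1, Sohlh2, Stra8, Dmrt1, Dazl, Rara, Rarb, Rarg and Neurog3. The genes were chosen by name, for their function, with earlier results of these data known. A gene counted as measured when at least 3 cytosines in it or within 1 kb of either end (GRCm38) were listed in all 6 libraries. All 10 passed, of 28733 genes measured, with 1367 cytosines among the 2206320 used. The number per gene ran from 11 in Sohlh1 and 13 in Stra8 to 185 in Rarb and 381 in Rara.

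The libraries are reduced representation bisulfite sequencing libraries, a method that reads CpG-rich restriction fragments, of DNA from male germ cells of mice. There were 3 Control libraries and 3 of mice after chronic social defeat stress (CSDS), in which a mouse is repeatedly subjected to a dominant one. Strain, age, the way germ cells were isolated and the time after stress are not in the labels. The labels also do not say that replicates came from separate animals, so p-values measure the spread between these samples. DNA came from many cells, so a part-methylated level can be a share of cells or of alleles, and the 2 cannot be told apart.

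Undifferentiated spermatogonia, the stem and progenitor cells of the testis, begin to differentiate when retinoic acid reaches them. Retinoic acid binds receptors encoded by Rara, Rarb and Rarg, which pair with RXR proteins on DNA and switch on genes such as Stra8. Differentiating spermatogonia then gain the receptor KIT under the control of SOHLH1 and SOHLH2, while DMRT1 restrains entry into meiosis. NEUROG3 marks progenitors before this step, and DAZL is an RNA-binding protein that germ cells need throughout.

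Promoter sequences show what the assay could and could not see. RefSeq starts (GRCm38.p6) matched 9 of the 10 genes. Below are the 250 bases before the start of 4 genes, 5′ to 3′ on the gene's strand. Capitals in these 4 mark CpGs with a cytosine listed in all 6 libraries.
Rarb, chr14:16575477-16575726, minus strand: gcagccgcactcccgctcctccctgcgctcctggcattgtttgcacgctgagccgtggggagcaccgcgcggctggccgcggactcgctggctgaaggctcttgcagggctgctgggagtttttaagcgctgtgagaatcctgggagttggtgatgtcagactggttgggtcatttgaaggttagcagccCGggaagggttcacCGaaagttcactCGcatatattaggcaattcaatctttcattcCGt
Rara, chr11:98937446-98937695, plus strand: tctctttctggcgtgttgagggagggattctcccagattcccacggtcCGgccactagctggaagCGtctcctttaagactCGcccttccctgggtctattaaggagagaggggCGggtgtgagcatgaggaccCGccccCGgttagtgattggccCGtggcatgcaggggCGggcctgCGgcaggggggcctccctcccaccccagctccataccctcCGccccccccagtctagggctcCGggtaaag
Kit, chr5:75574737-75574986, plus strand: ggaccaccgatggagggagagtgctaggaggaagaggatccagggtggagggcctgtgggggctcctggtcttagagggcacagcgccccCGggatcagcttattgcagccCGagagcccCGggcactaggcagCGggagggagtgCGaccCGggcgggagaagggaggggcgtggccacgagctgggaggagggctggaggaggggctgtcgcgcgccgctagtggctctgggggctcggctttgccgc
Neurog3, chr10:62132840-62133089, plus strand: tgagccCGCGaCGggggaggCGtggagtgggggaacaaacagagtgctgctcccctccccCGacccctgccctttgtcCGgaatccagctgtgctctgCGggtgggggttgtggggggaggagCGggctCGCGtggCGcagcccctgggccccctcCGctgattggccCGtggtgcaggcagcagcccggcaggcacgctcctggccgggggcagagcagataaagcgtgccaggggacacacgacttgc

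The Neurog3 stretch had 26 listed cytosines and the Rara stretch 18, against 12 in Kit and 4 in Rarb. In Rarb a listed CpG falls inside a pair of retinoic acid receptor motifs, GGTTCA and AGTTCA with 5 bases between them, at -53 to -37 from the start. This pair, looked for after the sequence was seen, occurs on either strand in 2 of 27024 promoters of 300 bases (250 before to 50 after the start), or 0.00740%. Stra8 has 2 copies of another receptor motif, AGGTCA, which 16.0% of promoters hold on either strand. They are in capitals in its 250 bases before the start, where no cytosine was listed in all libraries.
Stra8, chr6:34920698-34920947, plus strand: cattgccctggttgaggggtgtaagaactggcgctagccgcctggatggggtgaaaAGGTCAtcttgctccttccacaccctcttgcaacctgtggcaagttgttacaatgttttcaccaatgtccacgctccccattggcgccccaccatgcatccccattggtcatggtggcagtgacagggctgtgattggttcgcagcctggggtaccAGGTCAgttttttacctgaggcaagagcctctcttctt

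Over the cytosines listed, none with under 10 reads, the median coverage was 44 to 50 reads a library. CSDS replicates 2 and 3 listed the most cytosines, 3156788 and 3017470, against 2420308 to 2671515 in the others. No molecular identifiers are named in the labels, so depth speaks to counting error only. CSDS replicates 2 and 3 stood apart from the other libraries. Mitochondrial cytosines, a gauge of unconverted DNA, read as C in a median of 8.90, 8.84 and 10.04% of reads in Control replicates 1 to 3 and in 8.50, 4.41 and 4.53% in CSDS. Over 27 broadly expressed genes the median start level was 13.9, 14.0 and 14.3% in Control and 12.9, 7.92 and 9.53% in CSDS. Differences are therefore given as deposited and after a mitochondrial correction, in which the unmethylated share of each library was divided by 1 minus its mitochondrial share. That share rests on 27 cytosines, and a low level can fall below 0 after the correction. How much of any difference comes from conversion was not tested beyond these values. As a check of the labelled cells, 3 regions known to be methylated in sperm averaged 89.8 to 97.9% in Control. The 6 regions methylated only in the egg averaged 14.8 to 28.5% in Control and 11.3 to 20.3% in CSDS. Of these 6, Snrpn had the widest difference, at 25.7, 27.1 and 32.6% in Control and 20.8, 15.2 and 14.8% in CSDS. Peg10 alone had a higher mean in CSDS, 16.5% against 14.8% in Control. Start windows of 3 Leydig genes were at 46.0 to 96.0% in Control, those of 5 Sertoli genes at 11.6 to 87.8%, and that of the macrophage gene Adgre1 at 94.96%.

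The 10 genes covered a wide range of methylation. Averaged over its cytosines, Neurog3 had the lowest level in Control, 14.3% ± 2.58 (SD, n = 3), next to Dazl at 14.9% ± 1.14. Kit had the highest at 69.4% ± 0.303, just above Rarb at 68.7% ± 0.371, and their Control ranges did not overlap. Neighbours in this order whose Control ranges overlapped were Neurog3 and Dazl, Sohlh2 and Rarg, Rarg and Stra8, and Stra8 and Rara. All 81 cytosines of Neurog3 and all 160 of Dazl lay within 1 kb of the start. In Kit this held for 37 of 133 and in Rarb for 48 of 185. The averages therefore cover unlike parts of the genes.

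**Figure D1:**
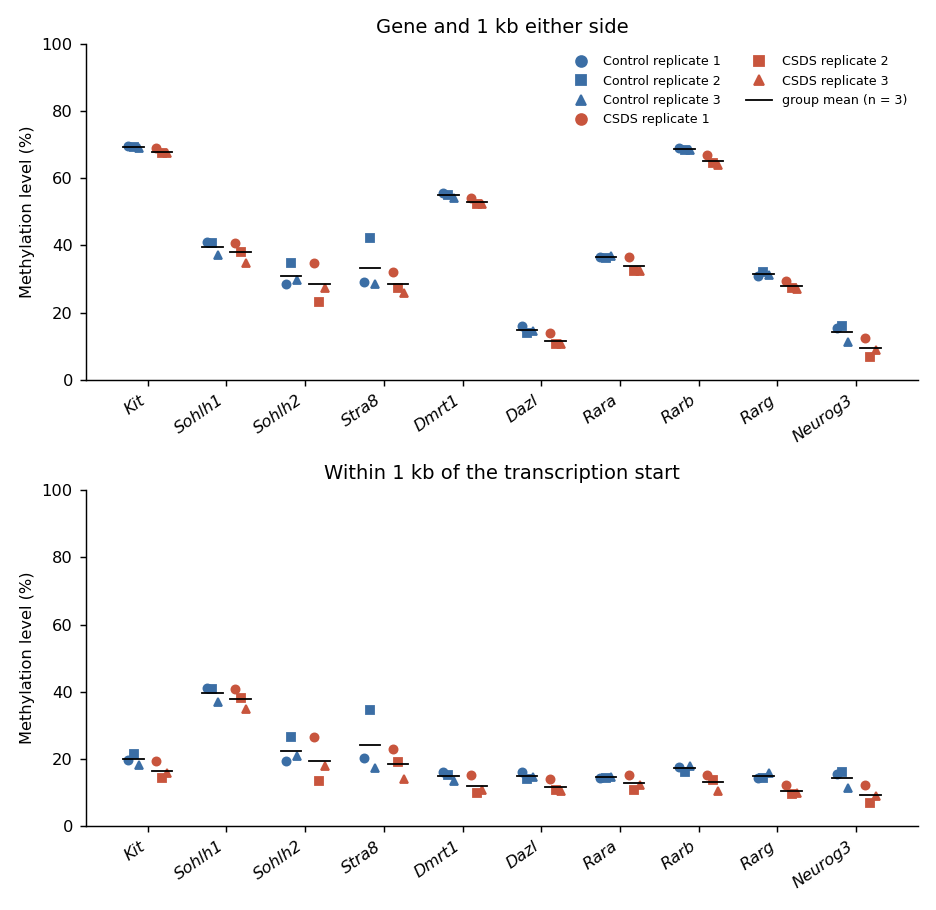
Mean methylation level (%) of each gene in each of the 6 libraries, over the gene and 1 kb either side (top) and within 1 kb of the transcription start (bottom). Points are libraries and bars group means of 3. Kit and Rarb were near 69% over the gene and at 19.8% and 17.2% at the start in Control, and Sohlh1 was the only start near 40%.

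Near the transcription start (within 1 kb) the spread was narrower. In Control, 7 of the 10 starts were under 20%: Neurog3 14.3%, Rara 14.5%, Rarg 14.8%, Dmrt1 14.9%, Dazl 14.9%, Rarb 17.2% and Kit 19.8%. Sohlh2 followed at 22.2%, Stra8 at 24.0% and Sohlh1 at 39.7%. Beyond the start levels spread further: Kit averaged 88.5%, Rarb 86.7%, Dmrt1 85.4% and Sohlh2 95.3% in Control, against 44.1% in Rara and 43.6% in Rarg. Cytosines near a start were under 20% in 550 of 651 cases, and those beyond 1 kb were over 80% in 401 of 716.

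All 10 genes had a lower mean in CSDS than in Control, and no gene passed the test. The test was a moderated quasi-binomial F test on summed methylated and unmethylated reads, with Benjamini-Hochberg adjustment over all genes. A gene was called at an adjusted p under 0.05 with 10 points or more between group means. The share of all genes called was 0%, with 8834 (30.7%) at an unadjusted p under 0.05, and limma on log ratios also called 0. Without CSDS replicate 1 the fit called 150 genes (0.522%), none of them among the 10. That fit keeps only the CSDS libraries with the low mitochondrial share. The direction is that of the whole table, since 89.3% of all genes had a lower CSDS mean and 63.0% after the correction. Of the 10, 5 had an unadjusted p under 0.05 (Dazl, Rara, Rarb, Rarg and Neurog3). In 4 of the 10 (Kit, Dmrt1, Rarb and Rarg) all CSDS libraries lay below all Control libraries, as in 31.0% of all genes. After the correction 7 of the 10 were lower and this held for Rarb alone, against 9.14% of all genes. The median difference (CSDS minus Control) was -3.02 points over the 10 and -2.66 over all genes, or -0.374 and -0.422 after the correction. Exact permutation of 3 against 3 libraries cannot give a two-sided p below 0.1.

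**Figure D2:**
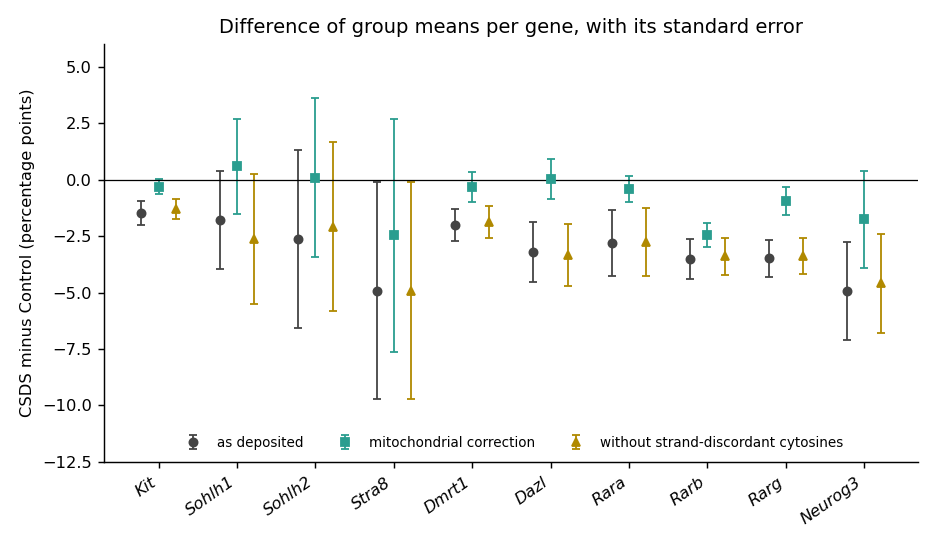
CSDS minus Control difference of mean methylation (percentage points) per gene, with its standard error from the 3 libraries of each group, as deposited, after the mitochondrial correction and without strand-discordant cytosines. All 10 differences were below 0 as deposited, and after the correction Stra8 was at -2.47 with a wide error, Rarb at -2.45, Neurog3 at -1.77 and the others between -0.944 and 0.579.

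Some cytosines read high on 1 strand of a CpG and low on the other, which bears on the levels of several genes. Over all libraries, 72790 of 903591 CpGs with both strands listed (8.06%) differed by 50 points or more between strands. The high strand had a median level of 97.1% and the low strand 8.40%. In promoter windows all 9584 such high cytosines lay in the sequence CCGG, the recognition site of MspI, the enzyme usual in this method, against 14.0% of the other 213013 cytosines in these windows with both strands listed. Among the 10 genes, 50 of 576 CpGs were of this kind: 19 in Rara, 6 in Rarg, 5 each in Kit and Dazl, 4 in Dmrt1, 3 each in Sohlh1, Sohlh2 and Rarb, 2 in Neurog3 and 0 in Stra8, where only 2 cytosines (1 CpG) had both strands listed. Of these, 8 lay in a promoter window, all 8 in CCGG. Their average over the genome was 94.0, 95.5 and 94.8% in Control and 93.6, 87.8 and 89.8% in CSDS. What makes them high was not tested, and results were repeated without the high cytosine of each such CpG, a choice made after seeing the data.

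**Figure D3:**
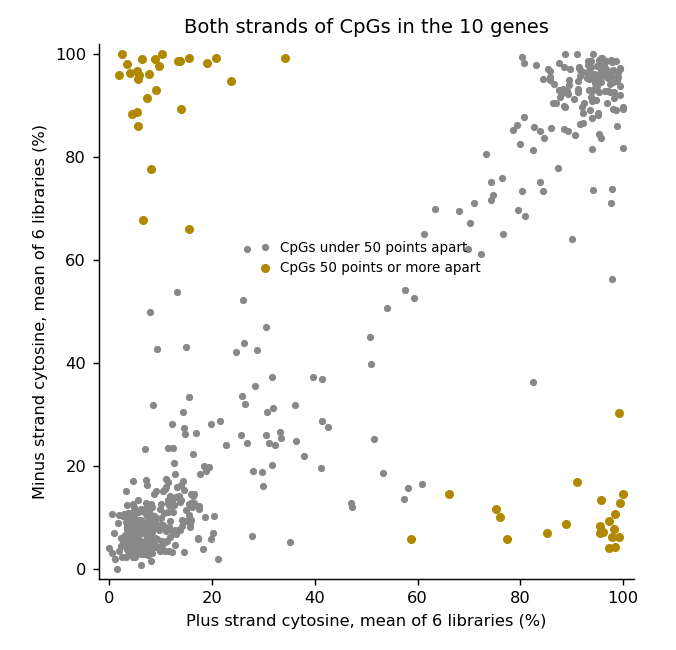
Level of the plus strand cytosine (x axis, %) against the minus strand cytosine (y axis, %) for the 576 CpGs of the 10 genes with both strands listed, each a mean of 6 libraries. The 50 CpGs that differ by 50 points or more lie in the upper left and lower right corners, away from the low and high groups on the diagonal.

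Rara (chromosome 11, 98927800 to 98974942) encodes RARα, in the testis best known as the receptor of Sertoli cells. Over the gene its level was 36.5, 36.4 and 36.8% in Control replicates 1 to 3 and 36.7, 32.3 and 32.3% in CSDS replicates 1 to 3. CSDS replicates 2 and 3 were low, while CSDS replicate 1 lay within the Control range. The difference was -2.82 points, with an adjusted p of 0.128 in the quasi-binomial F test, and -0.421 after the correction. At the start the levels were 14.3, 14.4 and 14.7% in Control and 15.1, 10.8 and 12.2% in CSDS. Here the sign depended on the scaling: the difference was -1.78 as deposited and 1.56 after the mitochondrial correction, with all CSDS libraries then above all Control libraries. Of the cytosines of Rara, 90 also lie in the predicted gene Gm46294, which spans this start, so these cannot be given to Rara alone.

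Rarb (chromosome 14, 16430839 to 17082331) encodes RARβ, whose own promoter is a textbook target of retinoic acid receptors. Over the gene its level was 69.1, 68.4 and 68.4% in Control and 66.8, 64.5 and 64.1% in CSDS. All CSDS libraries lay below all Control libraries, and CSDS replicate 1 was nearest to Control. The difference was -3.51 points with cytosines weighted equally and -7.13 with reads summed over the gene. The F test, which works on the summed reads, gave the lowest p of the 10 genes, 0.000121, but an adjusted p of 0.128. Limma gave an unadjusted p of 0.0310. Summed reads also depend on where in the gene the reads fell. Within 1 kb of the start, where levels were low, reads ran from 2259 to 2937 a library, against 10354 to 10795 over the gene. How much of the summed difference comes from this was not tested. The equally weighted difference was -2.45 after the mitochondrial correction and -2.31 after the correction from broadly expressed genes, with the groups still apart both times.

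The start of Rarb and the rest of the gene were also averaged apart. Within 1 kb of the start the levels were 17.7, 16.1 and 17.9% in Control and 15.2, 13.6 and 10.3% in CSDS, a difference of -4.18 as deposited and -1.10 after the correction, when the groups overlapped. Beyond 1 kb they were 87.1, 86.8 and 86.1% in Control and 84.9, 82.3 and 82.9% in CSDS, a difference of -3.28 as deposited and -2.93 after it, with the groups apart. In the receptor motif pair printed above, the cytosine at -46 had 2 of 18, 1 of 12 and 1 of 12 reads methylated in Control and 5 of 34, 2 of 29 and 0 of 34 in CSDS. The count of 0 allows a level of up to 8.82%. All 4 listed cytosines of these 250 bases averaged 6.32 to 11.4% over the libraries, and no group difference was detectable at that depth.

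The widest difference among all 98 tiles of 500 bp in the 10 genes was in Rarb, at chr14:16724000-16724499. It lies 149 kb upstream of the listed start and within the span of the gene table. Its 13 cytosines averaged 66.3, 64.5 and 65.9% in Control and 55.6, 50.6 and 46.9% in CSDS, from 541 to 919 reads a library. All CSDS libraries were lower, and CSDS replicate 1 was 9.93 points below the Control mean. The difference was -14.5 points and -14.0 after the correction, with an adjusted p of 0.174 over all tiles in the quasi-binomial F test. Leaving out CSDS replicate 1 made it -16.8 with an adjusted p of 0.000463 in that test, which is past the threshold, in a fit that called 1.44% of all tiles. Over all alternatives its adjusted p ran from 0.000463 to 0.928. Differences of at least 10 points in this direction occurred in 1.65% of all tiles, and 2 of the 98 tiles, both in Rarb, differed by 10 points or more. Of its cytosines, the one at 16724231 on the minus strand, at 53.8, 52.4 and 61.6% in Control and 23.1, 30.8 and 48.5% in CSDS, had the widest difference with groups apart, -21.8 points.

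**Figure D4:**
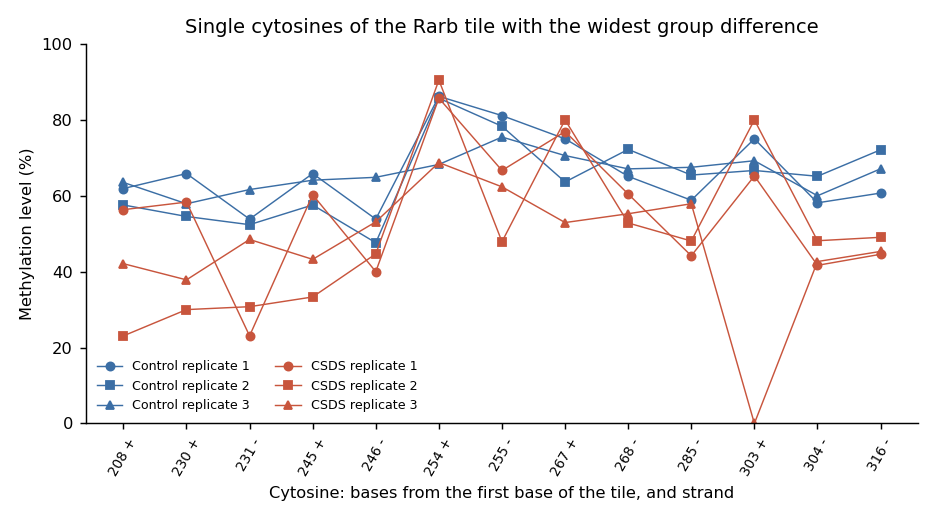
Methylation level (%) of the 13 single cytosines in the Rarb tile, by distance in bases from the tile's first base and by strand, with 1 line per library. Tile means were 64.5 to 66.3% in Control and 46.9 to 55.6% in CSDS, and single cytosines crossed between groups.

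The same fit, with 1.44% of all tiles called, brought 1 more Rarb tile past the threshold, at chr14:17006000-17006499, so that 2 of the 98 tiles were called. Its 7 cytosines averaged 57.7, 64.0 and 51.9% in Control and 57.7, 37.3 and 46.4% in CSDS. CSDS replicate 1 lay inside the Control range. The difference was -10.7 points with all libraries. Without that replicate it was -16.0 points, with an adjusted p of 0.0325 in the quasi-binomial F test. The CSDS libraries left in that fit, replicates 2 and 3, are those with the low mitochondrial share. Stress and that share cannot be told apart in it.

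Rarg (chromosome 15, 102234938 to 102257522) encodes RARγ, the receptor of differentiation-competent spermatogonia. Over the gene its level was 31.0, 32.0 and 31.3% in Control and 29.5, 27.2 and 27.2% in CSDS, with no overlap. The difference was -3.49 points, with an adjusted p of 0.129 in the F test, and -0.944 after the correction, when the groups overlapped. At the start the levels were 14.3, 14.2 and 15.8% in Control and 12.3, 9.67 and 9.71% in CSDS. This difference was -4.24 as deposited and -1.08 after the mitochondrial correction, and the groups stayed apart both times. After the correction from broadly expressed genes it was -0.420 and the groups overlapped. A later listed start, at 102246500, had 13.5% ± 1.46 in Control against 10.6% ± 2.37 in CSDS (SD, n = 3), with overlap.

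Stra8 (chromosome 6, 34920163 to 34939344) is the retinoic acid target that licenses meiosis. Its level was 29.2, 42.2 and 28.6% in Control and 32.1, 27.4 and 25.8% in CSDS. Control replicate 2 was high, and the other libraries overlapped. The difference was -4.91 points as deposited, -2.47 after the correction and -0.492 as deposited without Control replicate 2. Only 13 cytosines, from 328 bases after the start onward, were listed in every library, so the stretch with its AGGTCA motifs was not analysed here.

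Kit (chromosome 5, 75574987 to 75656722) encodes the receptor for stem cell factor, present on differentiating spermatogonia. Its level was 69.7, 69.4 and 69.1% in Control and 69.0, 67.4 and 67.5% in CSDS. CSDS was lower in all libraries by a small margin. The difference was -1.47 points as deposited and -0.322 after the correction, and 0.745 in the opposite direction when reads were summed over the gene. The start was low, at 19.7, 21.6 and 18.3% in Control and 19.2, 14.2 and 15.8% in CSDS. Without its 4 strand-discordant cytosines the start averaged 10.7% in Control and 7.60% in CSDS as deposited. With all its cytosines kept, it averaged 11.6% and 11.2% after the mitochondrial correction. The gene body was high, at 88.5% ± 0.623 in Control against 87.8% ± 0.372 in CSDS (SD, n = 3).

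**Figure D5:**
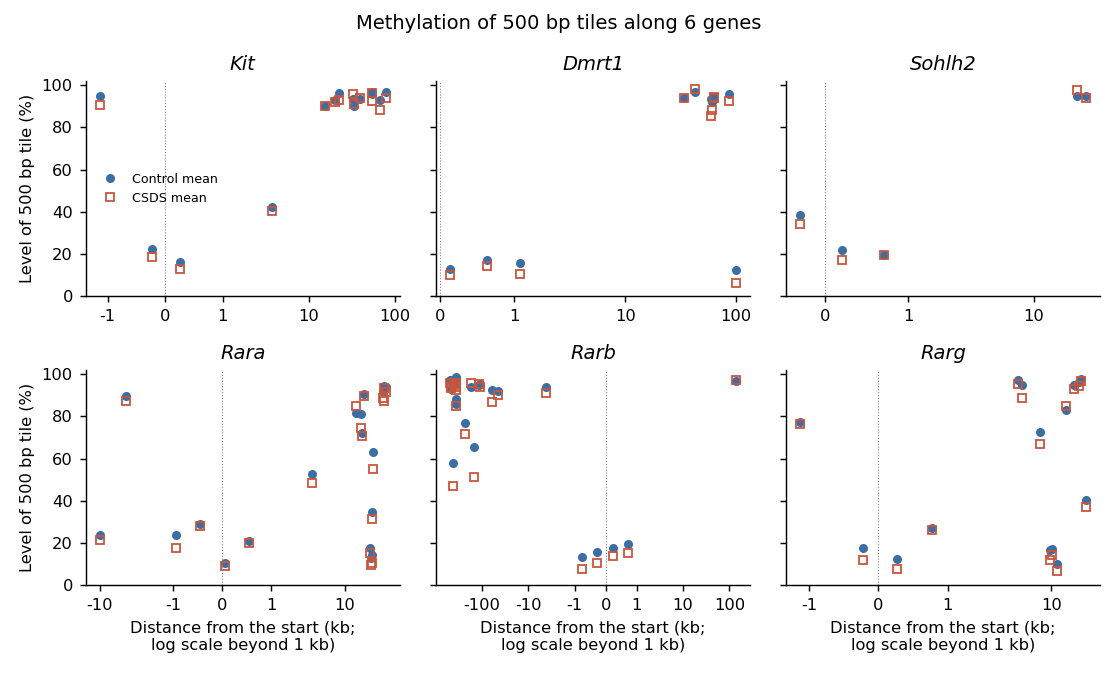
Group mean level (%) of 500 bp tiles against distance from the transcription start (kb, linear to 1 kb and log beyond; negative is upstream) in 6 genes. Tiles near the start were low and most distant tiles were above 80%, with low tiles again inside Rara and Rarg and past the end of Dmrt1, and the widest gap between groups far upstream in Rarb.

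Sohlh1 (chromosome 2, 25842995 to 25847248) encodes a bHLH factor of spermatogonia. Its level was 41.2, 40.9 and 37.0% in Control and 40.7, 38.1 and 34.8% in CSDS, from 11 cytosines that all lie within 1 kb of the start. The groups overlapped and differed by -1.78 points as deposited and 0.579 after the correction. The level itself rested on 3 strand-discordant cytosines with means of 99.2% or more. Without them Sohlh1 was at 17.3% ± 2.83 in Control against 14.6% ± 4.07 in CSDS (SD, n = 3). With strand-discordant cytosines left out, the starts of the 7 genes under 20% in Control were at 9.84 to 12.8%, below Sohlh1. Those of Sohlh2 (18.7%) and Stra8 (24.0%) had higher Control means than Sohlh1. The site 23 bases after the start is shown on the gene's strand (chr2:25847216-25847235), with CCGG in capitals.
Sohlh1: tgcggcttCCGGcttgttgc

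The plus strand cytosine of this Sohlh1 site read as methylated in every read of each library, while its minus strand partner, 1 base away, averaged 14.5%. No other of the 10 genes moved this far. Without such cytosines Dazl went from 14.9 to 12.4% in Control, Kit from 69.4 to 68.4% and Rara from 36.6 to 33.6%, and all 10 differences kept their negative sign, from -1.31 in Kit to -4.91 in Stra8.

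Sohlh2 (chromosome 3, 55182044 to 55209957) encodes the partner of SOHLH1. Its level was 28.6, 34.8 and 29.6% in Control and 34.8, 23.1 and 27.2% in CSDS. CSDS replicate 1 matched the highest Control library, and CSDS replicate 2 was lowest. The difference was -2.61 points as deposited and 0.0874 after the correction, and 0.0396 without CSDS replicate 2. Its widest single cytosine, at 55182611, ran the other way, at 0, 15.4 and 15.4% in Control and 64.0, 16.7 and 25.5% in CSDS. The 0 came from 13 reads, which allows a level of up to 23.1%, and CSDS replicate 1 was the high library.

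Dmrt1 (chromosome 19, 25505618 to 25604328) encodes a DM domain factor. Its level was 55.6, 55.1 and 54.2% in Control and 54.1, 52.3 and 52.4% in CSDS, a narrow gap with no overlap. The difference was -2.02 points as deposited, -0.328 after the correction and 2.62 when reads were summed over the gene. For the start the gene end with more listed cytosines was used, where the level was 14.9% ± 1.26 in Control against 11.9% ± 2.75 in CSDS (SD, n = 3). Beyond it the gene was at 85.4% ± 0.282 in Control against 84.1% ± 0.437 in CSDS. A low tile past the other end (chr19:25605000-25605499) was at 12.8, 14.4 and 9.79% in Control and 6.33, 5.44 and 6.97% in CSDS. Its difference was -6.10 as deposited and -2.96 after the correction, when the groups overlapped. Corrected levels fell below 0 in Control replicate 3 (-0.271%) and CSDS replicate 1 (-2.37%).

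Neurog3 (chromosome 10, 62133090 to 62134763) encodes a bHLH factor of progenitor spermatogonia. Its level was 15.4, 16.1 and 11.4% in Control and 12.3, 6.90 and 8.86% in CSDS. CSDS replicate 1 lay within the Control range and the other CSDS libraries below it. The difference was -4.94 points, with an adjusted p of 0.149 in the F test, and -1.77 after the correction. The tile at chr10:62134000-62134499 stood higher than the rest of the gene, at 38.3, 36.8 and 38.9% in Control and 33.4, 29.0 and 23.4% in CSDS, from only 4 cytosines. Without its strand-discordant cytosine the tile was at 17.3% ± 1.42 in Control against 7.68% ± 3.16 in CSDS (SD, n = 3). Its difference was -9.38 points as deposited and -7.42 after the correction, with the groups apart.

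Dazl (chromosome 17, 50279393 to 50293620) encodes a germ cell RNA-binding protein. Its 160 cytosines all lie within 1 kb of the start, and 142 of them were under 20%. The level was 16.1, 13.9 and 14.6% in Control and 13.9, 10.6 and 10.5% in CSDS. CSDS replicate 1 lay at the lower edge of Control. The difference was -3.21 points, with an adjusted p of 0.136 in the F test, and 0.0298 after the correction. The tile over the start (chr17:50293500-50293999) was at 20.4, 12.3 and 15.2% in Control and 10.8, 6.42 and 6.36% in CSDS, and its difference was -8.13 as deposited and -5.23 after the correction. The next tile (chr17:50293000-50293499), named here after its values were seen, differed by -1.20 as deposited and by 2.19 after the correction, when all CSDS libraries lay above all Control libraries.

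At the starts, all 10 genes were again lower in CSDS, as were 91.6% of all start windows, or 58.7% after the correction. Rarb and Rarg had no overlap at the start, as in 32.0% of all windows. The share of start windows called was 0% in the quasi-binomial F test, with 7638 at an unadjusted p under 0.05, 4 of them among the 10 (Dazl, Rarb, Rarg and Neurog3). Limma called 26 windows, and the fit without CSDS replicate 1 called 364 (1.66%). None of the windows called in either was among the 10.

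Of the 98 tiles of the 10 genes, 80 were lower in CSDS and 18 higher, with a median difference of -2.85 points. In 20 tiles all CSDS libraries lay below all Control libraries, against 15.7% of all tiles, and in 0 the reverse. After the correction 11 were lower in this way, against 7.68% of all tiles, and 3 were higher. The share of all tiles with CSDS above was not counted, as deposited or after the correction. The share of tiles called was 0% in the quasi-binomial F test, with 25454 at an unadjusted p under 0.05 and 0 called by limma. Without CSDS replicate 1 it called 2350 tiles (1.44%), of which 2 were the Rarb tiles described above. The remaining tile of the 5 widest with groups apart was chr11:98961500-98961999 in Rara, at 62.9% ± 2.39 in Control against 55.1% ± 5.58 in CSDS (SD, n = 3), a difference of -7.88 points as deposited and -6.82 after the correction.

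Among single cytosines, 148 of 1367 had all CSDS libraries below all Control libraries, against 10.5% of all cytosines. In 22 they lay above, a direction whose share over all cytosines was not counted. The share of cytosines called was 0%, with 236471 at an unadjusted p under 0.05 and 0 by limma. The 3 widest differences were in Dmrt1, Neurog3 and Rara, and all 3 were strand-discordant cytosines. The Dmrt1 cytosine, 403 bases after the start, was at 79.3, 97.2 and 82.6% in Control and 56.4, 35.8 and 45.5% in CSDS, while the other strand averaged 14.4%. In Neurog3 the cytosine 623 bases after the start was at 73.2, 80 and 92.5% in Control and 64.0, 40.8 and 55.7% in CSDS, and its partner averaged 6.64%. That of Rara, 1152 bases before the start, was at 90.2, 89.5 and 92.5% in Control and 80, 44.2 and 69.6% in CSDS, with its partner at 8.21%. The genome-wide average of such cytosines was also lower in CSDS replicates 2 and 3.

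Genes around the same pathway were taken as 6 lists of 66 genes in all, and none was called in either direction. All 12 genes of retinoic acid synthesis and breakdown were lower in CSDS, with a median difference of -3.66 points, or -0.959 after the correction. Cyp26c1, which breaks retinoic acid down, was at 25.3% ± 1.66 in Control against 20.4% ± 3.69 in CSDS (SD, n = 3). Dhrs4, a retinol-oxidising reductase, was at 19.4% ± 0.909 and 14.7% ± 1.94, with the groups apart also after the correction. All 11 genes of retinoid transport and receptor partners were lower, with medians of -2.67 and -0.514. Crabp1, which binds retinoic acid in the cytoplasm, was at 26.4% ± 0.939 in Control against 21.6% ± 2.56 in CSDS. Its groups were apart also after the correction, with a difference of -2.11 points.

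All 15 measured genes of undifferentiated spermatogonia were lower, with a median of -3.24 points and -0.502 after the correction. Bcl6b, a repressor tied to stem cell renewal, was at 22.6% ± 1.97 in Control against 17.6% ± 0.939 in CSDS, and Lhx1 at 17.7% ± 0.913 and 13.1% ± 3.06 (SD, n = 3). The 6 genes of the KIT ligand and spermatogonial cyclins had a median of -3.04, or -0.787 corrected. Kitl, the ligand of KIT, was at 25.8, 26.0 and 26.3% in Control and 23.9, 18.9 and 20.4% in CSDS, with a difference of -4.98 points, or -2.29 corrected with the groups still apart. Ccnd1 was at 27.2% ± 2.07 and 23.0% ± 2.63. The 8 measured genes of meiotic entry had a median of -3.22, or -0.410 corrected, with Sycp2, of the synaptonemal complex, at 19.01% ± 6.09 and 14.2% ± 4.59 and Meioc, which extends meiotic prophase, at 19.4% ± 4.48 and 15.7% ± 3.42. The 9 measured relatives of Dazl, Dmrt1, Sohlh1 and Neurog3 had a median of -3.06, or -0.459 corrected, with Figla at 19.01% ± 7.21 and 14.8% ± 6.35 and Dmrta2 at 15.1% ± 1.04 and 11.2% ± 2.59.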

How the data were processed

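Per the labels, the kits used were DNeasy Blood & Tissue for DNA of male germ cells and Zymo-Seq RRBS for the libraries. The submitters' processing notes name Trim Galore 0.5.0, Bismark 0.20.0 and GRCm38. The deposited tables give, per the file headers, a read count (coverage) for each CpG cytosine and the percent of these with C. Percent times coverage gave whole methylated reads. Cytosines listed in all 6 libraries were used, except those in the top 0.1% of coverage. Strands were kept apart.

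A level is the mean over cytosines, each weighted equally. Reads summed over a gene, a start window (1 kb either side), a 500 bp tile or a cytosine were fitted by a binomial model in Python 3.11.15 (numpy 2.4.6), with the dispersion moderated as in limma 3.58.1 (R 4.3.3), and tested on simulated data. Features needed 3 cytosines. The gene table gives ends only, so exons, introns and untranslated regions were not separated. Genes named are all 10, the 2 of widest difference per list, and the 5 tiles and 5 cytosines of widest difference with groups apart. A listed gene that this rule picks is not reported here. Tiles called without CSDS replicate 1 were added after their values were seen. The 10 genes and the lists were chosen with earlier results of these data known. The alternatives were another coverage minimum, no cap, summed reads, limma, a replicate block, corrections for conversion, other feature bounds and leaving out libraries or strand-discordant cytosines.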

Additional observations from a re-analysis of the deposited data

How the results depend on the processing

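With 3 libraries a group and 11 to 13 cytosines in Sohlh1 and Stra8, small differences were not detectable. The lists share the same libraries, with a lower mitochondrial share read as C in CSDS replicates 2 and 3. How much of the lists' differences comes from conversion was not tested. The count of called features was 0 under most of 17 alternatives. Exceptions were limma (26 start windows), the housekeeping correction, from broadly expressed genes (1 tile), coverage of at least 20 (3 cytosines), no coverage cap (485 cytosines) and no strand-discordant cytosines (1 cytosine). Leaving out 1 library gave 0 to 150 genes, 0 to 364 start windows, 0 to 2350 tiles and 0 cytosines, with all calls made without CSDS replicate 1. Same-numbered libraries did not deviate together (correlations of -0.0839, -0.0953 and -0.0013), and a replicate block called 0 genes, start windows, tiles and cytosines and left the median difference of the 10 genes at -3.02.

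That median ran from -4.31 to -2.37 points without 1 library, and the spread of the genes' median level was 3.43. Signs turned in 16 of 170 gene differences and 16 of 160 start differences. With summed reads Kit was at 0.745 and Dmrt1 at 2.62. At coverage of at least 20, Sohlh1 was at 0.0163 (gene and start), and without flanks at 0.778. After the mitochondrial correction Sohlh1 was at 0.579 (gene and start), Sohlh2 at 0.0874 and its start at 0.0395, Dazl at 0.0298 (gene and start), the Dmrt1 start at 0.328 and the Rara start at 1.56. After the housekeeping correction Sohlh1 was at 1.09 (gene and start), Sohlh2 at 0.674 and its start at 0.697, Dmrt1 at 0.0265 and its start at 1.05, Dazl at 0.734 (gene and start), Rara at 0.0855 and its start at 2.35, the Kit start at 0.243 and Dmrta2 at 0.00803. Sohlh2 ran from -5.84 to 0.0396 without 1 library, turning without CSDS replicate 2. With CSDS replicate 1 alone against Control, added after seeing the data, Sohlh1 was at 1.06 (gene and start), Sohlh2 at 3.83 and its start at 4.18, the Dmrt1 start at 0.184, Rara at 0.0878 and its start at 0.607, Meioc at 0.0677 and Figla at 3.09. No named tile or cytosine turned in the alternatives run for it.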
